A study of Mus musculus with 24 samples.

Results

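The 7 genes described here encode parts of the angiotensin axis (Agt, Ace and Agtr1a), membrane peptidases that trim angiotensins (Enpep, Anpep and Mme) and a further membrane peptidase, Dpp4. They were found by symbol in the 4 comparison tables of the series, and had been selected on results of these same tables, the fold changes and adjusted p of Mof-depleted against control cells. Every count, fold change and p below is therefore a description of these genes and no independent test. All 7 have a row in each MEF table of 43626 genes. The podocyte tables hold changed genes only (adjusted p below 0.05): 2 of the 7, Enpep and Mme, are among 9578 genes with Adriamycin, and 4, Enpep, Mme, Agt and Dpp4, among 1990 with vehicle. A member without a row there either missed that threshold or was not tested, and its level is not known.

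Poly(A) RNA was measured in 24 samples, 8 groups of 3. The podocytes were differentiated MPC5 cells (a mouse line; passage 20) with a Mof knockdown or a scrambled sequence, given Adriamycin at 0.25 µg/ml or DMSO vehicle for 24 h. The mouse embryonic fibroblasts (MEFs, passage 2) were Mof knockout or wild type, given Adriamycin at 0.1 µg/ml or vehicle for 24 h. Mof, also called Kat8, encodes an acetyltransferase of histone H4, and Adriamycin (doxorubicin) is a DNA-damaging drug that injures podocytes in mice. Separate cultures are not stated for the 3 samples of a group, and the p-values then cover only the differences among these samples, technical ones included. Each table compares 3 Mof-depleted with 3 control samples. For each gene it gives the mean normalized count over the 6, the log2 fold change of Mof-depleted over control with its standard error (SE), and p-values. Values of single samples are not used here, and library depth is unknown. Group means given below were computed from a table's mean count and fold change. They are approximate, and lie closer together than the true means where fold changes were shrunken. Those of the MEF tables appear to be shrunken, and those of the podocyte tables may be too.

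Angiotensinogen, the product of Agt, is the secreted protein from which renin cuts angiotensin I. Angiotensin-converting enzyme (Ace) removes its last pair of residues and leaves angiotensin II, which acts through the AT1 receptor (Agtr1a) to constrict vessels and raise pressure in the glomerulus. Aminopeptidase A (Enpep) removes the first residue of angiotensin II, aminopeptidase N (Anpep) the next, and neprilysin (Mme) cuts within angiotensins and other peptides. Dipeptidyl peptidase 4 (Dpp4) removes pairs of residues from the front of incretins and chemokines. In the kidney these peptidases are abundant on the brush border of the proximal tubule, and podocytes also carry Enpep and Mme.

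Short coding stretches show the substrate and the catalytic sites of the enzymes. They come from GENCODE M21 transcripts (GRCm38). In Agt, codons 30 to 39 of 482 encode angiotensin I; capitals mark the codon of the residue that Enpep removes from angiotensin II and the codons of the pair that Ace removes. In the zinc peptidases, capitals mark the codons of the pair of histidines that bind the zinc ion and of the catalytic glutamate that follows the first of them. This motif lies once in Enpep (codons 385 to 389 of 945), Anpep (387 to 391 of 966) and Mme (584 to 588 of 750). Ace holds it at codons 395 to 399 and again at 993 to 997 of 1312. Dpp4 is a serine peptidase, and capitals mark the codon of its active-site serine (codons 622 to 626 of 760).
Agt: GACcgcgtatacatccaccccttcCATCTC
Ace, first site: CACGAGatgggcCAC
Ace, second site: CACGAAatgggcCAC
Enpep: CACGAActtgtaCAC
Anpep: CACGAGctggccCAT
Mme: CATGAAatcacaCAT
Dpp4: ggctggTCAtatgga

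The promoters of the 4 genes that were higher together in Mof-knockdown podocytes with vehicle are shown next, from RefSeq (GRCm38.p6), 250 bases before to 50 after the start. They lie at chr8:124569657-124569956 (minus strand) for Agt, chr3:129332700-129332999 (minus strand) for Enpep, chr3:63295622-63295921 (plus strand) for Mme (1 of 3 RefSeq promoters of this gene) and chr2:62412182-62412481 (minus strand) for Dpp4. Capitals mark matches on either strand to any of 8 motifs: TATA box (TATAAA), GC box (GGGCGG), AP-1 site (TGANTCA), HNF1 core (GTTAAT), STAT site (TTCNNNGAA), cAMP response element (TGACGTCA), E-box (CACGTG) and p53 site.
Agt: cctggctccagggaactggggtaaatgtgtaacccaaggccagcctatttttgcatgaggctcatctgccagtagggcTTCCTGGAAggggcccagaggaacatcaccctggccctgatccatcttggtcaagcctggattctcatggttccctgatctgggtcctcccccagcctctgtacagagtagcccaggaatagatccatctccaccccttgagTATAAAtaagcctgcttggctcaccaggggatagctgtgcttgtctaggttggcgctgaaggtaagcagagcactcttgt
Enpep: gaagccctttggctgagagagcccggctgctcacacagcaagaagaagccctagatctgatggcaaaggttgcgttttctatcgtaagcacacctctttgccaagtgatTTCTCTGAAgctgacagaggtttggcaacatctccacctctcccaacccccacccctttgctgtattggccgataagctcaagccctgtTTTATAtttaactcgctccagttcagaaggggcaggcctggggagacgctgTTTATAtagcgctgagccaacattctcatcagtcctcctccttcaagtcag
Mme: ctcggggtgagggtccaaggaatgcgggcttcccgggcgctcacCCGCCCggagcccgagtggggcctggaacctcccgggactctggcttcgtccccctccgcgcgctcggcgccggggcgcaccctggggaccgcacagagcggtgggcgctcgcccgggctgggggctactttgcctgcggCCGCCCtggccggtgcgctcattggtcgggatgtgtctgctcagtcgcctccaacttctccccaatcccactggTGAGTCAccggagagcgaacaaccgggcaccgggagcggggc
Dpp4: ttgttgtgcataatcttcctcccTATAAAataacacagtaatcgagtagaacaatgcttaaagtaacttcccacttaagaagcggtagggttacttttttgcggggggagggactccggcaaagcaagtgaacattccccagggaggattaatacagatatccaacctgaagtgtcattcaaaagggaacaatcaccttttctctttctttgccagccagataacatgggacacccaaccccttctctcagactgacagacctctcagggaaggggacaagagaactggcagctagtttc

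These 4 promoters shared no motif in all of them. Agt had a TATA box at -30 and a STAT site at -172, counted from the RefSeq start. Enpep had the TATA letters on the reverse strand only (read as TTTATA), at -52 and -1, and a STAT site at -141 from its RefSeq start. That start lies 29 bases from the GENCODE start, so the reverse match nearest the start is at -30 by GENCODE. Mme had GC boxes at -206 and -66 and an AP-1 site at 9. Dpp4 had a TATA box at -227. Of the other members, Ace had the TATA letters on the reverse strand at -31 and 4 GC boxes, 1 pair of which overlap. Anpep had 4 GC boxes. Among 32851 RefSeq promoters of this length, 13.6% held the TATA letters, 35.7% the GC box, 8.30% the STAT site and 7.81% the AP-1 site. The HNF1 core (7.10% of promoters), cAMP response element (1.79%), E-box (7.15%) and p53 site (8.36%) had no match in the 6 member promoters. G and C made up 73.0% of the Mme promoter, 54.7% of that of Agt, 51.3% of that of Enpep and 45.3% of that of Dpp4, against a median of 52.7%.

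In podocytes with vehicle, Mof knockdown went with higher RNA of the substrate gene and of 3 peptidases: Agt 5.83-fold, Enpep 3.89-fold, Dpp4 2.69-fold and Mme 1.79-fold, in the authors' deposited table. With Adriamycin, Enpep was again higher, 3.15-fold, and Mme was lower, at 72.5% of the scrambled control, in the authors' deposited table. In knockout MEFs, Anpep was higher with both Adriamycin and vehicle, Dpp4 was higher with vehicle, and Mme was lower with Adriamycin, in the authors' deposited tables.

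Counts of members stand beside the share of all genes called, and nothing is read from them, since these tables chose the members. In podocytes with Adriamycin 1 was higher and 1 lower, where 55.7% of 17184 genes tested were called (27.8% higher, 27.9% lower). With vehicle 4 were higher and 0 lower in podocytes, where 14.3% of 13876 genes were called (8.70% higher, 5.64% lower). In MEFs with Adriamycin 1 was higher and 1 lower of 5 tested, where 32.7% of 14139 genes were called (16.6% higher, 16.1% lower). With vehicle 2 were higher and 0 lower of 6 tested in MEFs, where 37.5% of 15605 genes were called (17.8% higher, 19.6% lower).

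**Figure D1:**
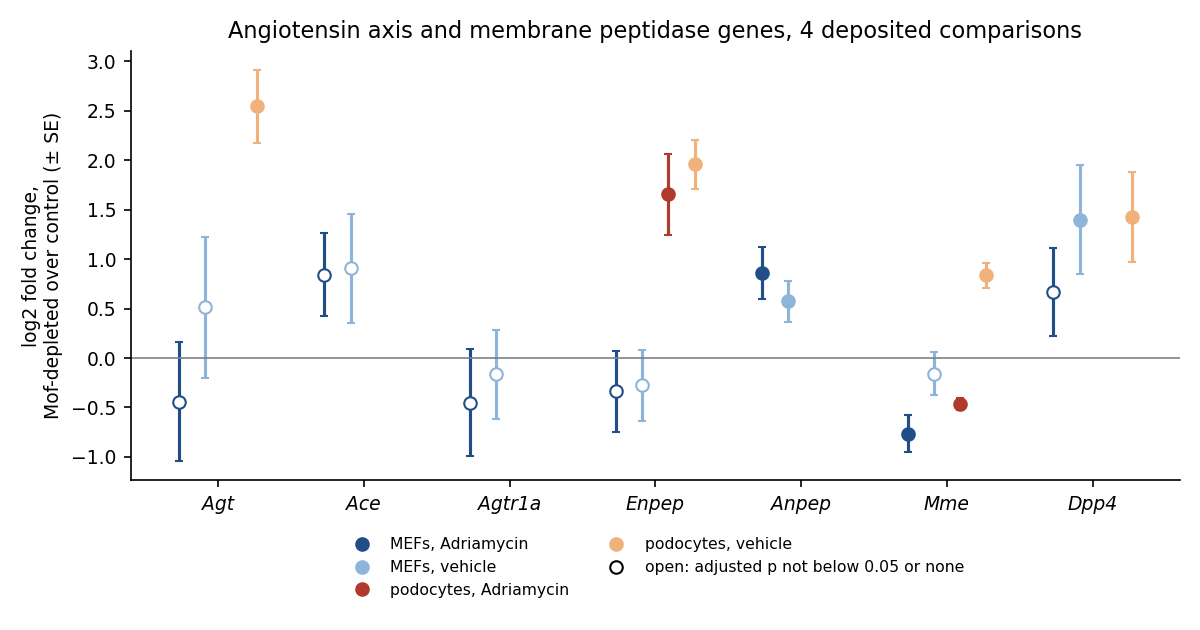
Log2 fold change of Mof-depleted over control for the 7 genes, from the authors' deposited tables, with bars of 1 SE. Colours mark the comparison and open circles an adjusted p that was not below 0.05 or not given. Agt and Enpep stand highest, in podocytes with vehicle, and Mme lies above 0 there and below 0 in podocytes with Adriamycin.

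The depleted gene itself, Kat8, stood at 42.3% of control in podocytes with Adriamycin and 35.6% with vehicle, and at 30.5% and 25.7% in MEFs with Adriamycin and vehicle, in the authors' deposited tables; its sign set the direction in which each table was read. The MEFs carried fibroblast RNA, with a mean normalized count of Col1a1 of 116732 with Adriamycin and 180211 with vehicle in the authors' deposited tables. Of 11 podocyte markers, 6 had a row in podocytes with Adriamycin and 2 with vehicle, and the defining markers Nphs1 and Wt1 had none in either. A row there marks a called change and not expression, so the levels of Nphs1 and Wt1 are not known. Podxl and Synpo, listed in both, had mean counts of 504 and 2902 with Adriamycin and 2004 and 2781 with vehicle in the authors' deposited tables. In bulk RNA, a change in the number of cells of a type and a change in RNA per cell cannot be told apart.

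Agt had the largest fold change of the members. In podocytes with vehicle its mean normalized count was 31.1 and its log2 fold change 2.54 ± 0.37 (SE; adjusted p 5.38e-10, DESeq2 by the authors) in the authors' deposited table. The group means came to 53.1 in knockdown and 9.11 in scramble cells, so the gene was low in the control. With Adriamycin it had no row in podocytes. In MEFs Agt was near the bottom of the scale, with a mean count of 2.95 with Adriamycin and 2.36 with vehicle and no adjusted p, and its log2 fold change was -0.44 ± 0.60 and 0.51 ± 0.71, each smaller than its SE, in the authors' deposited tables. The gene is protein coding (GRCm38 chromosome 8, 124556534 to 124569706, minus strand, ENSMUSG00000031980). Of its 17 protein-coding neighbours within 500 kb, 1 was higher and 0 lower in podocytes with vehicle, where 14.3% of all genes tested were called.

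Ace did not pass the threshold in MEFs and had no row in podocytes. Its log2 fold change in MEFs was 0.84 ± 0.42 with Adriamycin (mean count 38.5, adjusted p 0.112, DESeq2) and 0.91 ± 0.55 with vehicle (mean count 14.6, adjusted p 0.194) in the authors' deposited tables. Group means came to 49.4 in knockout and 27.6 in wild-type MEFs with Adriamycin, and to 19.1 in knockout and 10.2 in wild-type MEFs with vehicle. An antisense gene, Gm11651, overlaps Ace (chromosome 11, 105967945 to 105989964, plus strand, ENSMUSG00000020681), with a mean count of 0 in both MEF tables. Use of strand in the counting is not stated.

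Agtr1a, the receptor, was low in MEFs. Its mean count was 10.8 with Adriamycin, with no adjusted p, and 19.9 with vehicle, where the log2 fold change was -0.17 ± 0.45 (adjusted p 0.812, DESeq2), in the authors' deposited tables. It had no row in podocytes. The near-identical copy Agtr1b had mean counts of 18.1 and 5.38 in MEFs with Adriamycin and vehicle in the authors' deposited tables, and how reads were split between the copies is uncertain. Agtr2, the receptor that opposes AT1 in many tissues, rose in knockout MEFs with vehicle (log2 fold change 1.41 ± 0.35, adjusted p 0.000297, DESeq2) and was at 0.47 ± 0.31 with Adriamycin (adjusted p 0.246) in the authors' deposited tables. Agtr1a lies at chromosome 13, 30336441 to 30382867, plus strand, ENSMUSG00000049115.

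Enpep was higher in knockdown podocytes under both treatments. Its log2 fold change was 1.65 ± 0.41 with Adriamycin (adjusted p 0.000135, DESeq2) and 1.96 ± 0.25 with vehicle (adjusted p 7.10e-13) in the authors' deposited tables. Group means came to 33.9 in knockdown and 10.8 in scramble cells with Adriamycin, and to 359 in knockdown and 92.4 in scramble cells with vehicle. The fold changes differed by -0.31 ± 0.48, Adriamycin less vehicle, which is less than 1 SE. The call with Adriamycin was lost under Bonferroni adjustment. In MEFs the log2 fold change was -0.34 ± 0.41 with Adriamycin (mean count 22.2, adjusted p 0.566, DESeq2) and -0.28 ± 0.36 with vehicle (mean count 61.1, adjusted p 0.592) in the authors' deposited tables. Enpep lies at chromosome 3, 129269175 to 129332720, minus strand, ENSMUSG00000028024. Of its 6 protein-coding neighbours within 500 kb, Egf and Gar1 were higher and Elovl6 lower in podocytes with Adriamycin, and none had a row with vehicle. In MEFs 0 of 4 tested neighbours were called with Adriamycin, and 2 (Elovl6 and Gar1) were lower with vehicle. Of all genes tested, 55.7% were called in podocytes with Adriamycin and 14.3% with vehicle, and 32.7% and 37.5% in MEFs.

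The levels of the members were also set side by side between the tables with Adriamycin and with vehicle. The mean count of Enpep over the 6 podocyte samples was 22.3 with Adriamycin and 226 with vehicle, a ratio of 0.0988, where the median over 1518 genes in both tables was 0.825, from the authors' deposited tables. Its ratio was at percentile 0.329 of those genes, and that of Mme, 0.566, at percentile 28.3. In MEFs the ratio of Enpep was 0.363, against a median of 1.12 and at percentile 2.54 of 13973 genes. Mme (2.72, percentile 93.9) and Ace (2.64, percentile 93.5) had higher mean counts with Adriamycin than with vehicle in MEFs. The ratio there was 1.25 for Agt, 1.14 for Dpp4, 0.854 for Anpep and 0.540 for Agtr1a. The tables were normalized separately and set no Adriamycin sample against a vehicle sample, so these ratios were not tested.

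**Figure D2:**
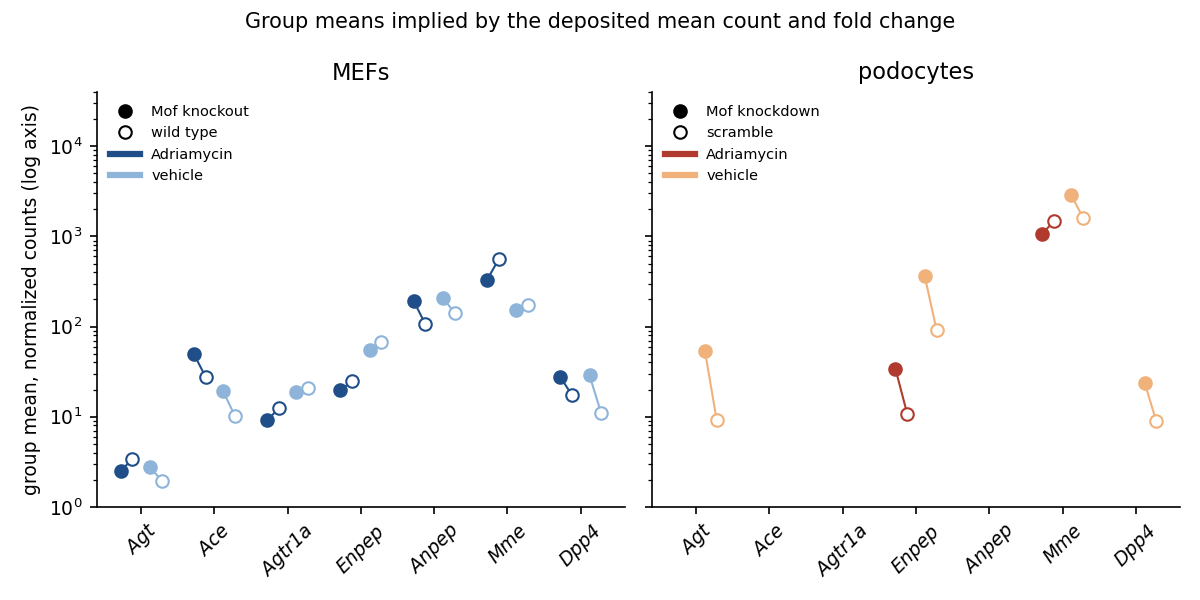
Group means of the 7 genes in normalized counts (log axis), computed from the authors' deposited mean count and fold change, with Mof-depleted groups filled and controls open. A line joins the groups of a table, tables were normalized separately, and a gene without symbols had no row. Enpep in podocytes stands about a decade lower with Adriamycin than with vehicle in both groups, and the knockdown mean of Mme lies below that of scramble with Adriamycin and above it with vehicle.

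Anpep, a zinc aminopeptidase like Enpep, had no row in podocytes and rose in knockout MEFs. Its log2 fold change was 0.86 ± 0.26 with Adriamycin (adjusted p 0.00553, DESeq2) and 0.58 ± 0.21 with vehicle (adjusted p 0.0185) in the authors' deposited tables. Group means came to 192 in knockout and 106 in wild-type MEFs with Adriamycin, and to 209 in knockout and 140.1 in wild-type MEFs with vehicle. The fold changes differed by 0.29 ± 0.34, Adriamycin less vehicle. The call with vehicle was lost at an adjusted p below 0.01. Anpep lies at chromosome 7, 79821803 to 79861059, minus strand, ENSMUSG00000039062. Of 20 tested protein-coding neighbours within 500 kb, 0 were higher and 6 lower in MEFs with Adriamycin, and 0 higher and 9 lower with vehicle. Of all genes tested, 16.6% were higher and 16.1% lower with Adriamycin, and 17.8% higher and 19.6% lower with vehicle.

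Of the 2 members with a row in both podocyte tables, Mme had opposite signs under the treatments and Enpep did not. In podocytes the log2 fold change of Mme was -0.46 ± 0.06 with Adriamycin (mean count 1265, adjusted p 1.09e-12, DESeq2) and 0.84 ± 0.13 with vehicle (mean count 2237, adjusted p 6.16e-09) in the authors' deposited tables. Group means came to 1063 in knockdown and 1466 in scramble cells with Adriamycin, and to 2868 in knockdown and 1605 in scramble cells with vehicle. The fold changes differed by -1.30 ± 0.14. In a z test over the genes in both podocyte tables, 1 of the 2 members there (Mme) differed between treatments, where 63.4% of genes did. Genes with opposite signs, 34.3% of those in both tables, were bound to differ, since each had passed the threshold in both. Of those 1518 genes, 300 (19.8%) were, like Mme, lower with Adriamycin and higher with vehicle, and 595 (39.2%) were, like Enpep, higher in both.

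In MEFs with Adriamycin Mme was lower in knockout than in wild-type cells, at a log2 fold change of -0.76 ± 0.18 (mean count 443, adjusted p 0.000293, DESeq2), and was at -0.16 ± 0.22 with vehicle (mean count 163, adjusted p 0.624) in the authors' deposited tables. Group means came to 328 in knockout and 558 in wild-type MEFs with Adriamycin, and to 154 in knockout and 172 in wild-type MEFs with vehicle. The difference of the fold changes, -0.61 ± 0.29, did not pass a z test adjusted over all genes (adjusted p 0.199), so a difference between treatments was not shown in MEFs. In that test 0 of the 5 members tested in both MEF tables passed, where 7.09% of genes did, and 1 (Mme) had an unadjusted p below 0.05. Mme lies at chromosome 3, 63241537 to 63386030, plus strand, ENSMUSG00000027820, and of its 2 protein-coding neighbours within 500 kb, Plch1 was higher in both podocyte tables. Of all genes tested in podocytes, 27.8% were higher with Adriamycin and 8.70% with vehicle.

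**Figure D3:**
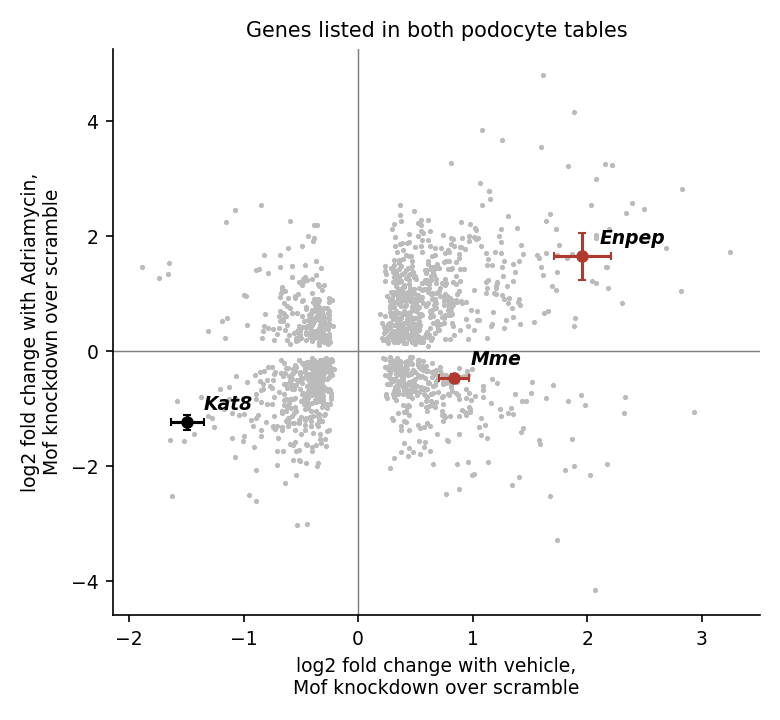
Log2 fold change of Mof knockdown over scramble with Adriamycin (vertical) against that with vehicle (horizontal) for the 1518 genes in both tables, with bars of 1 SE on Enpep, Mme and Kat8. Enpep lies among the 595 genes higher in both and Mme among the 300 lower with Adriamycin and higher with vehicle. Both tables hold changed genes only, which empties the bands around 0.

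Dpp4 had low counts wherever it was listed. With vehicle it rose in knockdown podocytes (log2 fold change 1.43 ± 0.46, mean count 16.4, adjusted p 0.0179, DESeq2) and in knockout MEFs (1.40 ± 0.55, mean count 19.8, adjusted p 0.0311) in the authors' deposited tables. Group means came to 23.9 in knockdown and 8.89 in scramble podocytes, and to 28.7 in knockout and 10.9 in wild-type MEFs. With Adriamycin it had no row in podocytes and was at 0.67 ± 0.45 in MEFs (mean count 22.5, adjusted p 0.260, DESeq2) in the authors' deposited table. The MEF fold changes differed by -0.73 ± 0.71, Adriamycin less vehicle. Neither call of Dpp4 with vehicle held at an adjusted p below 0.01. The antisense gene Gm13561 overlaps Dpp4 (chromosome 2, 62330073 to 62412231, minus strand, ENSMUSG00000035000), with a mean count of 0.654 with Adriamycin and 0 with vehicle in MEFs. Of its 6 protein-coding neighbours within 500 kb, 1 (Ifih1, a sensor of viral RNA) was higher in each MEF table, of 4 tested with Adriamycin and 3 with vehicle. In podocytes Ifih1 and Gca were higher with Adriamycin, and no neighbour had a row with vehicle. Of all genes tested, 32.7% were called in MEFs with Adriamycin and 37.5% with vehicle, and 55.7% and 14.3% in podocytes.

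Per kilobase of exon, Mme was the highest of the members with a row in podocytes. The mean count per kilobase was 109.6 for Mme and 4.74 for Enpep with Adriamycin, and 194 for Mme, 48.0 for Enpep, 16.5 for Agt and 2.59 for Dpp4 with vehicle. In MEFs with Adriamycin, Mme (38.4) and Anpep (36.0) led Ace (7.29), Enpep (4.72), Agtr1a (3.86), Dpp4 (3.56) and Agt (1.56). With vehicle, Anpep (42.2) led Mme (14.1), Enpep (13.0), Agtr1a (7.15), Dpp4 (3.13), Ace (2.76) and Agt (1.25). Without a spread over samples, neighbours in these orders cannot be separated.

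Genes with a like pattern were sought for Enpep and Mme, the members present in all 4 tables, by the Euclidean distance of the 4 log2 fold changes among 1157 genes. Nearest to Enpep were Alcam, a cell adhesion protein (0.59), Traf5, an adaptor of tumour necrosis factor receptors (0.72), and Mylk, a myosin light chain kinase (0.88). Nearest to Mme were Hrsp12 (0.37), Dok4 (0.40) and the tetraspanin Cd82 (0.44).

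Markers of cells in which these peptidases are abundant were counted in the podocyte tables. Of 9 epithelial and proximal tubule markers, 5 were higher and 0 lower with Adriamycin, and 3 were higher and 2 lower with vehicle, beside 55.7% and 14.3% of all genes called with Adriamycin and vehicle. With Adriamycin the share called in either direction is near that of all genes, of which 27.8% were higher and 27.9% lower. With vehicle 8.70% of all genes were higher and 5.64% lower. Nothing is read from these counts, since the list was chosen with earlier results of these data known. The log2 fold change of the water channel Aqp1 was 1.79 ± 0.31 with Adriamycin (mean count 39.6) and 2.69 ± 0.23 with vehicle (mean count 1034) in the authors' deposited tables. That of the kidney cadherin Cdh16 was 1.71 ± 0.10 with Adriamycin and 1.64 ± 0.34 with vehicle in the authors' deposited tables. That of the keratin Krt18 was 0.44 ± 0.12 with Adriamycin and -0.82 ± 0.15 with vehicle in the authors' deposited tables. The summed mean count of the markers with a row was 5316 with Adriamycin and 15007 with vehicle, and Slc34a1, Cubn, Cdh1 and Epcam had no row in either. Of the podocyte markers, 4 were higher and 2 lower with Adriamycin and 2 were higher and 0 lower with vehicle, Podxl and Synpo being higher in both. The part of these markers in the changes of Agt, Enpep, Mme and Dpp4 was not tested.

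**Figure D4:**
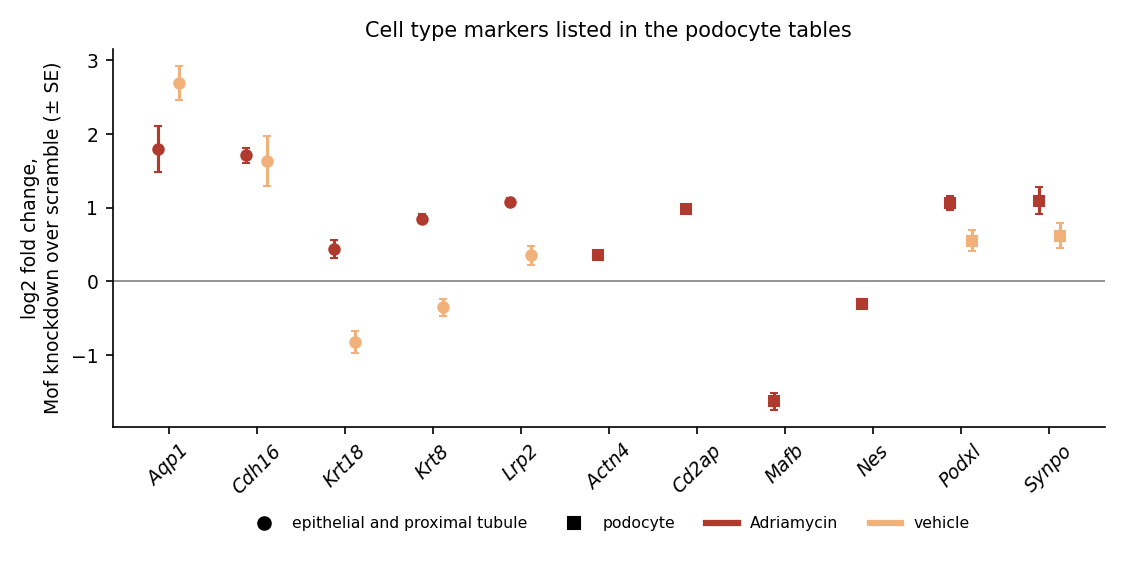
Log2 fold change of Mof knockdown over scramble, with bars of 1 SE, for the epithelial and proximal tubule markers (circles) and podocyte markers (squares) with a row in the podocyte tables. Aqp1 and Cdh16 lie well above 0 under both treatments, and Krt8 and Krt18 lie above 0 with Adriamycin and below 0 with vehicle.

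In MEFs, of 11 macrophage and leukocyte markers 0 were higher and 0 lower of 10 tested with Adriamycin, and 6 were higher and 0 lower of 11 with vehicle, where Dpp4, which leukocytes also carry, was higher. With Adriamycin 0 of them had an unadjusted p below 0.05 in the authors' DESeq2 test. Of all genes tested in MEFs, 32.7% were called with Adriamycin and 37.5% with vehicle. The summed mean count of the tested macrophage and leukocyte markers was 5357 with Adriamycin and 3566 with vehicle. The pan-leukocyte marker Ptprc was at -0.25 ± 0.33 and 0.36 ± 0.30, past the threshold in neither, in the authors' deposited tables. The part of these markers in the change of Dpp4 was not tested. In podocytes the same list had 1 higher and 2 lower with Adriamycin and 1 higher and 0 lower with vehicle. Of all genes tested in podocytes, 55.7% were called with Adriamycin and 14.3% with vehicle. The fibroblast list had 2 higher and 2 lower of 10 in MEFs with Adriamycin and 2 higher and 1 lower with vehicle, the endothelial list 1 higher and 0 lower of 5 and 2 higher and 0 lower of 7, and the smooth muscle and pericyte list 1 higher and 2 lower and 1 higher and 2 lower of 7. In podocytes the smooth muscle and pericyte list had 2 higher and 2 lower with Adriamycin and 0 higher and 2 lower with vehicle.

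Other genes of angiotensin production and breakdown (17 in the list) were lower where they had a row in podocytes with vehicle, with 0 higher and 4 lower. Values in parentheses for this and the next lists are log2 fold changes ± SE. Counts of these lists stand beside the shares of all genes tested that were called. These were 55.7% in podocytes with Adriamycin and 14.3% with vehicle, and 32.7% in MEFs with Adriamycin and 37.5% with vehicle. Nothing is read from the counts, since the lists were chosen with earlier results of these data known. The 4 were the peptidases Prep (-0.34 ± 0.09), Rnpep (-0.34 ± 0.11), Nln (-0.36 ± 0.12) and Lnpep (-0.43 ± 0.16) in the authors' deposited table. With Adriamycin 3 higher and 5 lower were listed: the lysosomal proteases Ctsa (-1.42 ± 0.05) and Ctsd (-0.93 ± 0.04) fell, and Thop1, a peptidase that can cut angiotensin I (1.14 ± 0.10), and the prorenin receptor Atp6ap2 (0.40 ± 0.08) rose in the authors' deposited table. In MEFs 6 were higher and 1 lower of 10 tested with Adriamycin (median log2 fold change 0.30, against -0.02 over all genes), and 4 were higher and 2 lower of 11 with vehicle (0.13, against 0.01). Ctsd rose in knockout MEFs with Adriamycin (0.52 ± 0.07) and vehicle (1.41 ± 0.10), as did Atp6ap2 (0.89 ± 0.13 and 1.09 ± 0.09) and Ctsa (0.54 ± 0.08 and 1.03 ± 0.10), and Thop1 fell with vehicle (-0.58 ± 0.09), in the authors' deposited tables. Renin (Ren1) had a mean count of 1.83 with Adriamycin and 0.157 with vehicle in MEFs, with no adjusted p, in the authors' deposited tables.

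Of 23 genes of angiotensin receptors and their coupling, 9 were higher and 6 lower in podocytes with Adriamycin, where 55.7% of all genes were called. With vehicle 3 were higher and 0 lower in podocytes, where 14.3% of all genes were called. Rgs2, which dampens signals of Gq-coupled receptors, rose with Adriamycin (2.79 ± 0.37, mean count 35.2) and with vehicle (1.15 ± 0.31, mean count 47.6) in the authors' deposited tables. Agtrap, which promotes uptake of AT1 into the cell (-1.35 ± 0.07), the phospholipase Plcb3 (-1.14 ± 0.05) and the G protein subunit Gna13 (-0.82 ± 0.05) fell with Adriamycin, while Plcb4 (1.40 ± 0.13) and the receptor kinase Grk5 (0.91 ± 0.14) rose, in the authors' deposited table. With vehicle Jak2 (0.35 ± 0.08) and Plcb1 (0.53 ± 0.15) rose in the authors' deposited table. In MEFs 3 were higher and 1 lower of 19 tested with Adriamycin (median -0.02) and 4 were higher and 2 lower of 21 with vehicle (median 0.09). Plcb4 fell in knockout MEFs with Adriamycin (-0.81 ± 0.13) and vehicle (-0.65 ± 0.12) in the authors' deposited tables.

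In the kinin system (6 genes), which Ace and Mme also trim, the bradykinin receptor Bdkrb2 was higher with Adriamycin (0.65 ± 0.17) and lower with vehicle (-0.82 ± 0.16) in knockdown podocytes, in the authors' deposited tables. These signs are opposite to those of Mme, and 221 (14.6%) of the 1518 genes in both podocyte tables had them. A link between the 2 genes was not tested. Cpn1, a carboxypeptidase that trims kinins, was higher with vehicle (1.19 ± 0.43) in the authors' deposited table. In MEFs 0 of 2 tested genes passed DESeq2's adjusted threshold with Adriamycin, and 1 (Cpn2) had an unadjusted p below 0.05, in the authors' deposited table. With vehicle Bdkrb2 was higher (1.25 ± 0.39), 1 of 5 tested, in the authors' deposited table. The median log2 fold change of the tested genes was 0.60 with Adriamycin and 0.58 with vehicle.

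Among 33 other membrane peptidases, 5 were higher and 7 lower in podocytes with Adriamycin, and 3 were higher and 1 lower with vehicle. With vehicle Ece1, the endothelin-converting relative of neprilysin, rose (0.61 ± 0.10) and the sheddase Adam17 fell (-0.39 ± 0.09) in the authors' deposited table. With Adriamycin the metalloproteinase Mmp15 (-1.38 ± 0.05), the dipeptidase Dpep2 (-1.39 ± 0.15) and hepsin (Hpn, -0.98 ± 0.13) fell, and Adam9 (0.76 ± 0.07) and Ggt7 (0.87 ± 0.14) rose, in the authors' deposited table. In MEFs 6 were higher and 3 lower of 22 tested with Adriamycin (median 0.10), and 8 were higher and 2 lower of 25 with vehicle (median 0.29). Mmp15 rose in knockout MEFs with Adriamycin (0.96 ± 0.17) and vehicle (2.19 ± 0.21), as did matriptase (St14, 0.63 ± 0.14 and 2.44 ± 0.31), and Ggt7 fell (-0.95 ± 0.28 and -1.09 ± 0.21), in the authors' deposited tables.

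Of 15 soluble and intracellular relatives of the members, 5 were higher and 6 lower in podocytes with Adriamycin, and 2 were higher and 0 lower with vehicle. In MEFs 4 were higher and 2 lower of 14 tested with Adriamycin (median 0.12), and 6 were higher and 2 lower of 14 with vehicle (median 0.05). Dpp7, a lysosomal dipeptidyl peptidase, fell in knockdown podocytes with Adriamycin (-1.10 ± 0.07) and rose in knockout MEFs with Adriamycin (1.28 ± 0.09) and vehicle (1.59 ± 0.12) in the authors' deposited tables. Erap1, an aminopeptidase of the family of Enpep and Anpep, rose in podocytes with Adriamycin (1.23 ± 0.11) and vehicle (0.34 ± 0.10) in the authors' deposited tables.

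**Figure D5:**
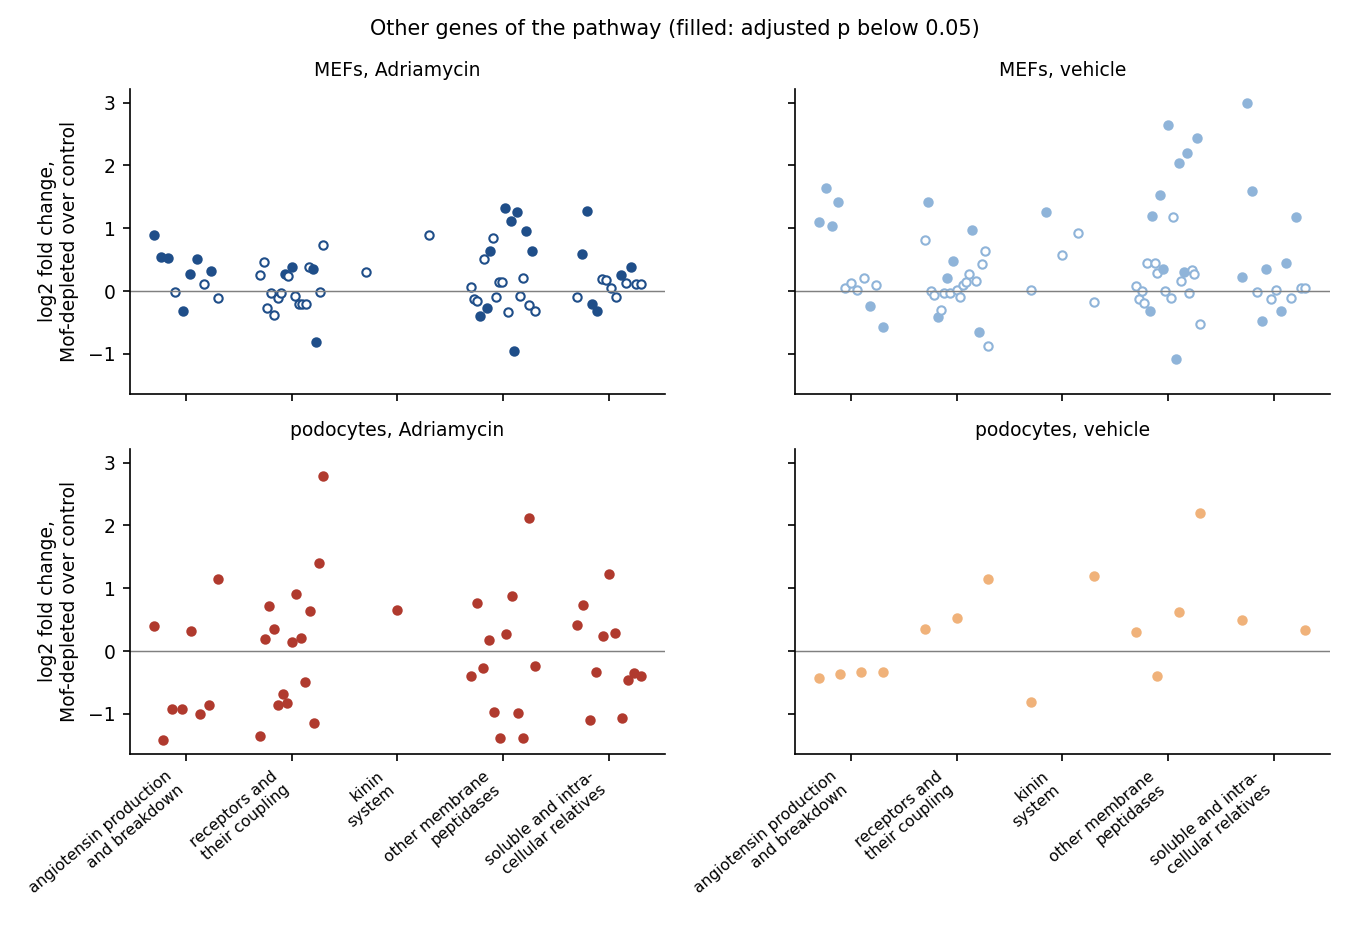
Log2 fold change of Mof-depleted over control for the genes of the 5 pathway lists in the 4 comparisons, each point a gene, filled where the adjusted p was below 0.05. The podocyte panels hold changed genes only. In podocytes with vehicle the 4 listed genes of angiotensin production and breakdown lie below 0, and in MEFs with vehicle 8 filled points of the other membrane peptidases lie above 0 and 2 below.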

How the data were processed

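RNA of 24 samples had been compared by the authors in 4 deposited tables, each of 3 Mof-depleted and 3 control samples. TopHat2 2.0.13, featureCounts 1.4.5-p1, DESeq2 1.4.1 and GRCm38 are named, per the submitters' processing notes, with no settings. The signal deposited by the authors is the mean of counts divided by size factors. Their log2 fold change is as deposited by the authors, and the deposited score columns are its standard error and the Wald statistic. For the fold changes of the tables, each p-value and its Benjamini-Hochberg adjusted value are as deposited by the authors. By default this version of DESeq2 shrinks fold changes, and whether the authors kept that is not stated. The MEF values look shrunken, since no SE exceeded 0.710 with vehicle or 0.600 with Adriamycin, even where counts were near 0. Ren1 with vehicle had a mean count of 0.157 and a log2 fold change of only -0.148 ± 0.310. In podocytes the largest SE was 0.683 with Adriamycin and 0.571 with vehicle, among changed genes only, so shrinkage there is possible but was not settled. Fold changes of members with low counts are then pulled towards 0. Headers do not name the numerator: Kat8 was taken to be lower in Mof-depleted cells. The number of genes tested in podocytes was recovered from p and adjusted p. Depth per library is unknown, and precision is given by the standard error.

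Genes were called at an adjusted p below 0.05. Fold changes of the treatments were compared by a z test from the deposited standard errors, with Benjamini-Hochberg adjustment (Python 3.11.15, pandas 2.3.3, scipy 1.17.1), in podocytes as an addition after the data were seen. The script was tested on simulated data. The members, the 5 pathway lists and the 6 marker lists were chosen with earlier results of these data known. Identifiers were found for 92 of 94 pathway genes and 56 of 57 marker genes. The rule for named genes took the members, Kat8, up to 3 genes per direction, list and table by adjusted p, and the 3 nearest in pattern to a member (mean count of at least 100 in each table). Not all of them are described, and Agtr1b, Ren1, Cpn2, Thop1, Lnpep and Rnpep where outside it, neighbours and overlapping genes were named after their values were seen. So were the 6 macrophage and leukocyte markers higher in MEFs with vehicle. Positions and exon lengths are from GENCODE M21; RefSeq promoters matched 6 of the 7 members. Some items are not reported here. Alternatives tried are given in the closing section.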

Additional observations from a re-analysis of the deposited data

Results flagged for a closer look

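The effect of Mof knockdown on Mme in podocytes differed between treatments: the log2 fold change was -0.46 ± 0.06 (SE) with Adriamycin and 0.84 ± 0.13 with vehicle in the authors' deposited tables, a difference of -1.30 ± 0.14. The z test of this difference, chosen after the data were seen, gave an adjusted p of 5.34e-19 over 1518 genes. All of these had passed the threshold in both tables, so the test covers a selected set. A gene there with opposite signs was bound to give a clear difference, so this p adds little to the signs. Enpep in the same test differed by -0.31 ± 0.48 (adjusted p 0.609).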

How the results depend on the processing

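Of 18 recounts of the members under other settings, 15 stayed within 1.5 times of the count reported. At an adjusted p below 0.01, 0 members were called in MEFs with vehicle in place of 2, as Anpep and Dpp4 missed it. Among genes whose mean count was at least 100, 1 (Anpep) was called there, Dpp4 being too low to enter. With Bonferroni adjustment, 1 (Mme) was called in podocytes with Adriamycin in place of 2, as Enpep missed it. Dpp4 in podocytes with vehicle no longer passed at 0.01, with Bonferroni adjustment, or with fold changes centred on the median of the listed genes (0.35), a setting chosen after the data were seen. Of 72 values of single members under other settings, 66 kept their direction and side of the threshold, 6 lost the threshold and 0 changed sign. Only centring altered the fold changes themselves, so a sign could change under centring alone. The low counts of Dpp4, Agt and Agtr1a limit what these tables can show of them. Leaving out samples was not run, since the files used hold no value per sample. No paired analysis was possible because the columns carry no samples.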
